A study of Drosophila melanogaster with 10 samples.

Results

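Salivary glands and Kc cells were compared with each other while both were under RNAi against the linker histone H1, and the same comparison under control RNAi was the reference. The comparison rests on 5 of the 10 arrays of the study, 3 of glands labelled H1 RNAi and 2 of Kc cells given dsRNA against H1, chosen by tissue and RNAi target in the sample titles. The other 5 arrays, 3 of glands labelled nau RNAi and 2 of Kc cells given dsRNA against GFP, gave the reference difference. The glands came from flies in which Tub-Gal4, a driver active in most cells of the animal, expressed the RNAi construct against H1 or against nau (Nautilus, a myogenic transcription factor), with crosses at 18 °C and RNAi at 29 °C from the embryo on. Because that driver is not restricted to the gland, the whole animal carried the RNAi. Kc cells, a haemocyte-like line made from embryos, were kept at 25 °C and soaked in dsRNA in serum-free medium on days 0, 2 and 4, 1 hour each time, with RNA taken on day 6, while the series record speaks of a single treatment. The labels used here state neither the larval stage nor that replicate arrays stand for separate animals or cultures, so the spread behind each p-value is that of these arrays and could be technical. The tissue difference also holds the difference in RNAi delivery, duration and temperature, which cannot be told apart from the tissue.

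Histone H1 binds the DNA that enters and leaves the nucleosome and helps to compact chromatin. The larval salivary gland is a secretory organ of large polytene cells, which copy their DNA without dividing and make glue proteins under control of the steroid hormone ecdysone. Kc cells divide, and like other embryo-derived lines they use the mitotic machinery that polytene cells lack. The values below are log2 of the deposited RMA intensities, a tissue difference is the gland mean minus the Kc mean, and the change of a tissue difference is the difference under H1 RNAi minus that in the control arrays. A tissue difference was called at an adjusted p under 0.05 and a size of at least 1 on the log2 scale, and a change was called at an adjusted p under 0.05. Group means at or under 3.55, the level of the Affymetrix Tag controls that match no fly transcript, were set to that level for stating sizes, which then read "at least", and the p is that of the limma fit on the unaltered values.

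The arrays were first checked against their labels. No probe set of H1 itself was analysed here, so its depletion was not measured, and the germline H1 variant gene BigH1 lay near background in all groups. The transcript of nau read 6.02, 5.54 and 5.50 in the glands labelled nau RNAi and 3.53, 3.53 and 3.36 in those labelled H1 RNAi, which goes against a depletion by the nau construct. Gland groups are therefore called by their labels, and whether construct RNA adds to that signal was not tested. An exchange of the labels of the gland groups would turn the sign of the difference between them, and with it the direction of most changes given below, so every direction of change rests on these labels. All 14 salivary gland markers were higher in glands than in Kc cells under H1 RNAi, where 13.5% of 11982 named genes were, and in the controls, where 12.6% were. Of 8 fat body markers, 6 were also higher in glands in both, with the storage protein gene Lsp2 at 14.08 ± 0.03 (SD, n = 3) in the glands labelled H1 RNAi and 3.28 ± 0.07 (n = 2) in Kc cells, so RNA of fat body genes was present in the gland arrays. The bulk arrays cannot tell fewer cells of a type from less RNA per cell. Arrays of a group correlated at 0.9983 in Kc cells and at 0.9886 to 0.9937 in glands, and the first principal component, which separated glands from Kc cells, held 79.7% of the variance. Several quality controls also differed by tissue. The 3′ minus 5′ signal of actin was 2.29 ± 0.18 (SD, n = 3) in the glands labelled H1 RNAi and 0.27 ± 0.02 (n = 2) in Kc H1 cells, against 1.91 ± 0.10 in the glands labelled nau RNAi and 0.44 ± 0.06 in Kc GFP cells. The 18S rRNA probe sets read 11.26 ± 0.18 and 11.63 ± 0.13 in the glands labelled H1 and nau RNAi, and 4.36 ± 0.41 and 6.76 ± 1.09 in Kc H1 and Kc GFP cells. These controls thus differed between the tissues and also between the RNAi groups within a tissue, and their part in the tissue differences and in the changes was not tested.

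H1 RNAi left a large difference between glands and Kc cells in place. Among 11982 named genes, 1621 (13.5%) were higher in glands and 2464 (20.6%) higher in Kc cells under H1 RNAi, where the control arrays gave 1514 (12.6%) and 2665 (22.2%). In all, 3088 genes were called in the same direction in both comparisons, which is 75.6% of the H1 RNAi calls and 73.9% of the control calls. The change itself was called for 2064 genes (17.2%) towards glands, meaning that the gland level gained on the Kc level, and for 1766 (14.7%) towards Kc cells. With quantile normalization these counts were 1782 and 2013, so which side was larger depended on the scaling. Over all named genes the median difference on the unaltered values was -0.09 under H1 RNAi and -0.04 in the control arrays, and the median change was -0.02. With group means at background set to the Tag control level, each of these medians was 0.

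The genes called in the same direction were split by the test of the change. For 1717 of them the change was not called, for 814 the difference was smaller under H1 RNAi, and for 557 it was larger. Another 779 genes differed only in the control arrays and 674 only under H1 RNAi with the change called, and 26 genes reversed. In 286 and 297 further genes, a control difference or an H1 RNAi difference alone passed its threshold without a called change, and a difference between the comparisons was not shown for these. The classes share arrays with the change, so their sizes describe the genes and are not separate evidence.

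**Figure D1:**
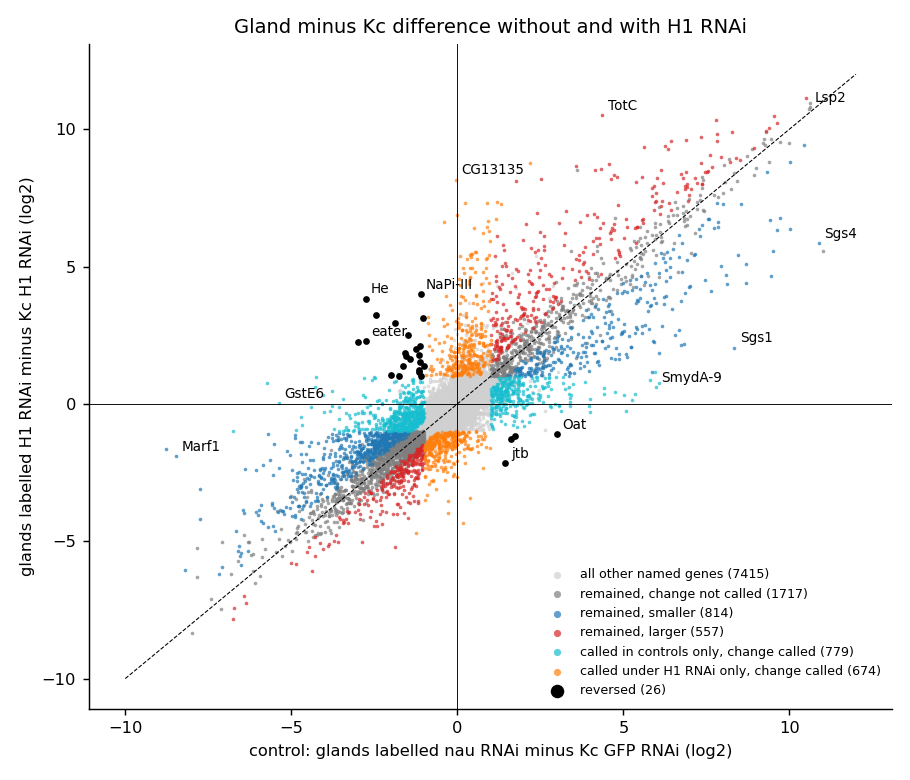
Fitted gland minus Kc difference of each named gene in the control arrays (x axis, log2) and in the H1 RNAi arrays (y axis, log2), coloured by class, with the dashed line at equal differences. The 26 reversed genes (black) lie in the upper left and lower right quadrants.

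**Figure D2:**
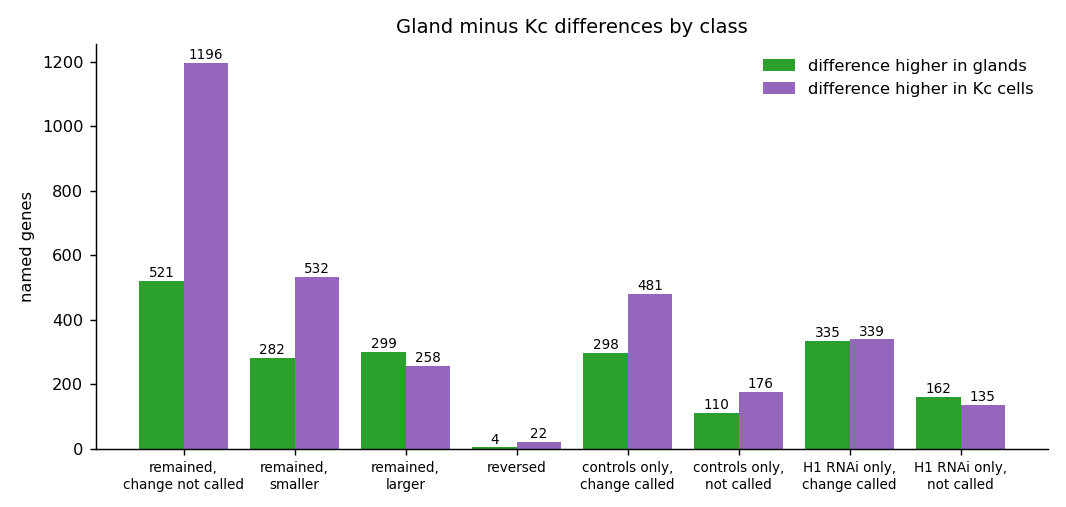
Number of named genes in each class, split by whether the difference was higher in glands or in Kc cells (for reversed genes and for those called in the control arrays only, the side in the control arrays). Of 2665 control differences on the Kc side, 532 remained smaller and 481 fell below the threshold with a called change, and of 1514 on the gland side 282 and 298 did.

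The change equals the difference between the gland groups (labelled H1 minus labelled nau) minus that between the Kc groups, so each called change can be placed. For 3221 of the 3830 genes the shift from control to H1 RNAi was called in glands only, at an adjusted p under 0.05. For 194 it was called in Kc cells only, and for 122 in both in opposite directions. The shift was larger in glands than in Kc cells for 3308 genes (86.4%). The spread within groups was also larger in glands, with a pooled SD of 0.24 and 0.26 in the gland groups and 0.11 and 0.12 in the Kc groups. For each gene the fit shared an estimate of the spread over all arrays, and there were fewer Kc arrays. Kc shifts were therefore harder to call than gland shifts, and a missing Kc call does not show an unchanged Kc level.

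Tissue differences whose change was not called lay on both sides. Obp99b, an odorant-binding protein gene, read 14.25, 14.22 and 14.25 in the glands labelled H1 RNAi and 3.51 and 3.51 in Kc H1 cells. The difference was at least 10.69 under H1 RNAi and 10.60 in the control arrays, and the change did not pass (adjusted p = 0.462). These gland values lay near the highest signals of the arrays (14.09 to 14.34) and the Kc H1 values under background. A larger excess of Obp99b could therefore hardly have been read, and the same limit holds for Lsp2. On the Kc side, Oatp58Dc, an organic anion transporter gene, was higher in Kc cells by at least 7.21 under H1 RNAi and by 7.13 in the control arrays (change adjusted p = 0.136). Other genes of this kind were Lsp2, CG14265 and the new-glue gene ng1 in glands, and CG10062, the monocarboxylate transporter gene Sln and the germline gene bgcn in Kc cells, all with a change that was not called. The fitted changes of these 6 genes lay between -0.42 for bgcn and 0.33 for CG14265. The 10 genes with the largest fitted gland excess under H1 RNAi had Kc values near or under background, so their order was not determined, and they were CG12310 (at least 10.65), CG14265 (at least 10.75), Lsp2 (at least 10.53), Obp99b, TotC, CG15369, Ag5r, CG34166, CG16926 and CG18649. The 10 with the largest fitted Kc excess were CG10062 (at least 8.29), amd (7.82), Oatp58Dc, dysf, CG18063, Sln, cona, bgcn, BthD and Cyp6a8. Among them dysf encodes a tracheal transcription factor, amd a decarboxylase of cuticle formation, cona a protein of the synaptonemal complex and BthD a selenoprotein.

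Reversed genes were read in every array because the sign itself changed. He, a surface protein gene of haemocytes, read 7.65, 7.01 and 8.42 in the glands labelled H1 RNAi and 3.89 and 3.82 in Kc H1 cells. In the control arrays He read 4.29, 4.63 and 4.75 in glands and 7.22 and 7.41 in Kc cells, so every Kc control array exceeded every array of glands labelled nau RNAi and the order was opposite under H1 RNAi. The difference of 2.76 towards Kc cells became 3.83 towards glands, a change of 6.60 (standard error 0.46, adjusted p = 1.22e-05). The phagocytosis receptor gene eater followed the same course, at 7.21, 7.21 and 7.78 in the glands labelled H1 RNAi against 5.15 and 5.10 in Kc H1 cells, and at 4.01, 4.71 and 4.48 in the glands labelled nau RNAi against 7.06 and 7.23 in the control Kc cells, with no overlap in either comparison. Its difference went from 2.75 towards Kc cells to 2.28 towards glands (change adjusted p = 6.66e-06). Both genes rose in glands (adjusted p = 1.98e-05 for He and 2.12e-06 for eater) and fell in Kc cells (adjusted p = 0.000573 and 0.00131).

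Among the other genes that went from a Kc excess to a gland excess, the change lay mainly in the glands. NaPi-III, a phosphate transporter gene, read 10.92, 10.93 and 10.84 in the glands labelled H1 RNAi and 4.28, 4.64 and 4.66 in those labelled nau RNAi. In Kc cells it read 6.82 and 6.98 with H1 RNAi and 5.49 and 5.78 with GFP RNAi. Its difference turned from 1.11 towards Kc cells to 4.00 towards glands (change adjusted p = 3.43e-07). CG12493 (change of 5.68), the odorant-binding protein gene Obp44a (5.24) and unc-13 (3.42), a gene of synaptic vesicle release, turned the same way. Obp44a had the widest gland spread of these, at 11.81, 9.48 and 9.99 in the 3 arrays labelled H1 RNAi.

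The opposite turn was made by 4 genes, Oat, jtb, CG32536 and Glut1. Oat, which encodes ornithine aminotransferase of amino acid breakdown, read 10.65, 11.24 and 11.73 in the glands labelled nau RNAi and 7.44, 7.81 and 7.28 in those labelled H1 RNAi, where Kc cells stood at 8.28 and 8.16 with GFP RNAi and 8.67 and 8.55 with H1 RNAi. Its gland excess of 2.99 became a Kc excess of 1.10, a difference that fell below the minimum size of 1 without gland array c labelled H1 RNAi and with quantile normalization. For jtb the gland excess of 1.45 became a Kc excess of 2.16 (change adjusted p = 1.02e-05), and for CG32536 a gland excess of 1.62 became a Kc excess of 1.28. The glucose transporter gene Glut1 reversed in the brightest of its 3 probe sets, from 1.74 towards glands to 1.18 towards Kc cells. The other 2 probe sets gave 0.94 and 0.56 towards glands under H1 RNAi, and the mean of the 3 gave 0.10, so its reversal rests on 1 probe set.

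**Figure D3:**
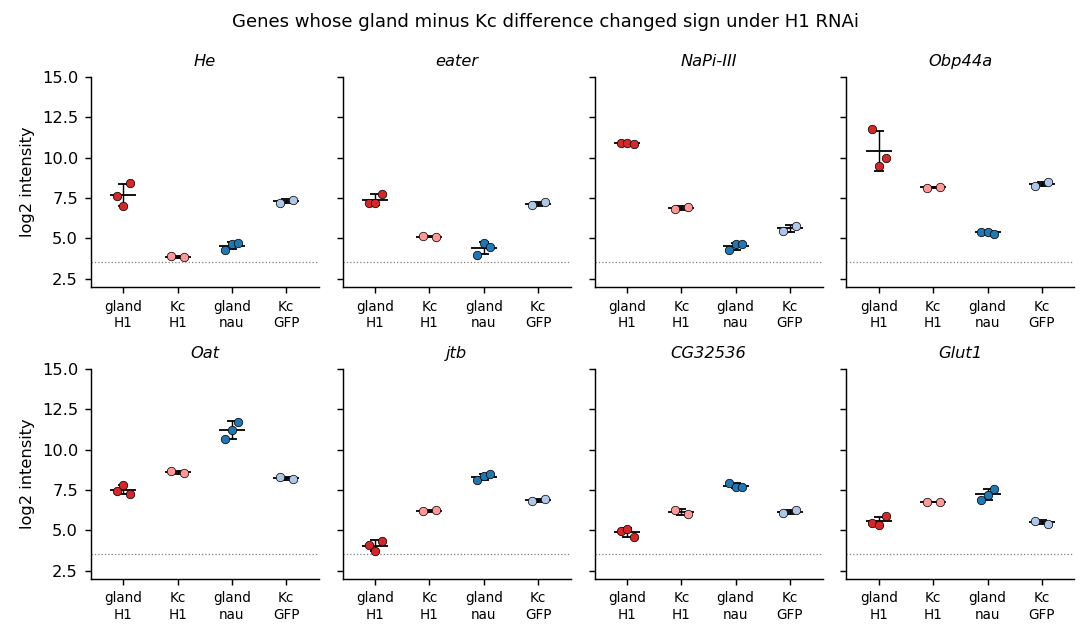
Log2 intensity of 8 reversed genes in every array, by group (gland H1, Kc H1, gland nau, Kc GFP), with the mean and SD in black and the Tag control level of 3.55 dotted. For He and eater the glands are above Kc cells under H1 RNAi and below them in the controls.

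The secretory genes that mark the gland kept their gland excess, but much of it was smaller. All 11 of 11 glue and new-glue genes were higher in glands in both comparisons, with a median difference of 6.35 under H1 RNAi against 10.00 in the control arrays. Of all named genes 13.5% were higher in glands under H1 RNAi and 12.6% in the controls. The change was called towards Kc cells for 6 (54.5%) and towards glands for 1 (9.09%), against 14.7% and 17.2% of all named genes. Sgs1, a glue protein gene, read 4.52, 5.84 and 5.62 in the glands labelled H1 RNAi and 3.22 and 3.34 in Kc H1 cells, against 11.73, 12.01 and 12.01 in the glands labelled nau RNAi and 3.75 and 3.41 in the control Kc cells. The glands exceeded Kc cells in all arrays, yet the difference was at least 1.77 under H1 RNAi and 8.34 in the controls (change adjusted p = 1.45e-05). For Sgs4 the difference was at least 5.77 against at least 10.72, where the control value lay near the highest signals of the arrays (14.09 to 14.34).

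Not all of these genes moved together. Sgs5, Sgs5bis and Sgs8 also had a smaller excess, at 6.35, 4.65 and 8.79 under H1 RNAi. Sgs3 read 9.87, 11.39 and 5.15 in the 3 arrays labelled H1 RNAi, and its change did not pass (adjusted p = 0.0684). The new-glue genes ng1 and ng3 kept differences of at least 8.81 and 9.51 (change adjusted p = 0.731 and 0.105), and ng4 was the member whose excess was larger, at least 5.46 against at least 2.07. Of 9 Eig71E genes, which are induced late in the ecdysone response, 4 were higher in glands labelled nau RNAi and 2 in the glands labelled H1 RNAi. These are 44.4% and 22.2% of the list, against 12.6% and 13.5% of all named genes. Eig71Ee kept 5.55 (change adjusted p = 4.92e-05), and Eig71Ea at least 1.80 of at least 6.57. Eig71Eg and Eig71Ed, at least 4.41 and at least 2.58 higher in glands labelled nau RNAi, lay at background in both H1 RNAi groups.

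Several regulators of the gland and of the ecdysone response had a smaller gland excess under H1 RNAi. The change was called towards Kc cells for 3 of 6 gland transcription factors (50%) and towards glands for 1 (16.7%), against 14.7% and 17.2% of all named genes. The 1 was rib (0.48, adjusted p = 0.0205), which lay at background in all groups. The bHLH factor gene sage read 9.79, 10.00 and 9.93 in the glands labelled H1 RNAi against 12.28, 12.34 and 12.47 in those labelled nau RNAi, and 7.78 and 7.86 in Kc H1 cells against 7.07 and 7.19 in Kc GFP cells. Its gland excess was 2.08 under H1 RNAi and 5.23 in the controls (change adjusted p = 1.02e-06), with the gland level lower and the Kc level higher. The forkhead factor gene fkh went from 3.02 to 1.97, while the Hox gene Scr, which specifies the gland, was at least 1.99 higher in glands under H1 RNAi (change adjusted p = 0.914). For sens (at least 7.12 to at least 6.45) the called change was lost without any one of 5 arrays, among them all 4 Kc arrays. Of 22 ecdysone response genes, 10 changed towards Kc cells and 0 towards glands in limma (13 of 22 at an unadjusted p under 0.05 in either direction). The 10 are 45.5% of the list, against 14.7% of all named genes. The receptor gene EcR went from 4.45 to 2.93, and the gland excess of the nuclear receptor gene Hr78 (1.85), of the transporter gene E23 (2.24) and of the nuclear receptor gene Hr39 (1.81) fell below the threshold. Eip78C, another nuclear receptor gene, was 4.71 higher in Kc cells under H1 RNAi, with no called difference in the controls (-1.24, adjusted p = 0.0705).

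Called changes in the machinery of secretion ran mostly towards Kc cells. Of 28 genes of ER translocation, folding and COP vesicles, 9 (32.1%) were higher in glands in the controls and 2 (7.14%) under H1 RNAi. Of all named genes 12.6% and 13.5% were. The change was called towards Kc cells for 19 members and towards glands for 2. The changes are 67.9% and 7.14% of the list, against 14.7% and 17.2% of all named genes. Sec24CD, a cargo adaptor gene of COPII vesicles, went from 1.04 towards glands to -0.41 (change adjusted p = 8.67e-05), and Tango1, needed for export of bulky cargo, from 1.55 to 0.33. TRAM, a gene of the translocon, remained higher in glands with a smaller difference, 2.38 against 2.99. Of 14 mucin O-glycosylation genes 8 (57.1%) changed towards Kc cells and 0 towards glands, against 14.7% and 17.2% of all named genes. Pgant9, a glycosyltransferase gene that starts O-glycan chains, went from 5.66 to 2.89 (change adjusted p = 1.84e-05), while Pgant4 was at least 5.03 higher in glands (change adjusted p = 0.557).

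Differences in DNA repair genes were smaller under H1 RNAi, with the gland values nearer to those of Kc cells. In the control arrays 23 of 27 (85.2%) were higher in Kc cells, against 22.2% of all named genes, with a median of -2.51. Under H1 RNAi 15 (55.6%) were, against 20.6% of all named genes, with a median of -1.06. The change was called towards glands for 22 (81.5%) and towards Kc cells for 1 (3.7%), against 17.2% and 14.7% of all named genes. The nuclease gene mre11 of double-strand break repair read 9.18 ± 0.16 (SD, n = 3) in the glands labelled H1 RNAi and 10.69 and 10.60 in Kc H1 cells, against 5.50, 5.21 and 5.27 in the glands labelled nau RNAi and 10.80 and 10.91 in the control Kc cells. Kc cells remained above the glands in every array, with the difference at 1.46 instead of 5.53 (change adjusted p = 6.96e-07). Its partner gene rad50 went from a Kc excess of 3.55 to a difference of -0.55.

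The Ku genes of end joining differed in what was left. Irbp, which encodes a Ku subunit, read 8.79, 8.83 and 9.15 in the glands labelled H1 RNAi and 9.21 and 9.20 in Kc H1 cells, and its control difference of 4.02 towards Kc cells was no longer called (-0.28, adjusted p = 0.292). Ku80 kept 1.39 of 4.68. The mismatch repair gene Pms2 went from 4.05 towards Kc cells to a gland minus Kc difference of 0.32, while Msh6 kept 3.70 of 4.76 and the Fanconi gene Fancd2 3.25 of at least 4.11. The called change of Msh6 (adjusted p = 0.0345) was lost without any one of 6 arrays, among them all 4 Kc arrays. With quantile normalization 17 repair genes changed towards glands and 12 were higher in Kc cells, and with median centring 20 and 16.

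Genes of small RNA silencing, most of them active in the germline, showed the same course with wider variation. Of 31 members 19 (61.3%) were higher in Kc cells in the controls and 16 (51.6%) under H1 RNAi. Of all named genes 22.2% and 20.6% were. The median of the list went from -3.44 to -1.08, and 18 changed towards glands and 2 towards Kc cells. The changes are 58.1% and 6.45% of the list, against 17.2% and 14.7% of all named genes. The piRNA cluster gene del read 7.37, 7.42 and 8.04 in the glands labelled H1 RNAi and lay at background, 3.43, 2.90 and 3.01, in those labelled nau RNAi, with Kc cells at 10.68 and 10.76 under H1 RNAi and 10.79 and 10.92 under GFP RNAi. Its Kc excess was 3.11 under H1 RNAi and at least 7.30 in the controls (change adjusted p = 7.73e-06). For blanks, a gene for a double-stranded RNA binding protein, the excess of 6.76 towards Kc cells came to a gland minus Kc value of -0.98, just under the minimum size. BoYb and the helicase gene spn-E were no longer called (-0.49 and -0.12), and AGO3 kept 1.24 of 4.88. The Argonaute gene aub remained 5.86 higher in Kc cells, with a change (adjusted p = 0.0366) that was lost without any one of 8 arrays and with quantile normalization, and fs(1)Yb lay at background in both gland groups and remained at least 5.11 higher in Kc cells (change adjusted p = 0.398). Marf1, a regulator of germline mRNA listed with testis and germline genes, went from a Kc excess of 8.48 to 1.91.

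Nearly all replication and mitosis genes stayed higher in Kc cells. Of 33 replication genes 30 were higher in Kc cells in both comparisons, and so were 29 of 32 mitosis genes. These are 90.9% and 90.6% of the lists, against 20.6% of all named genes under H1 RNAi and 22.2% in the controls. The median gland minus Kc difference lay nearer to 0 under H1 RNAi, at -2.51 against -3.37 for replication and -2.95 against -4.26 for mitosis. The change was called towards glands for 11 and 13 members and towards Kc cells for 3 and 3. Those towards glands are 33.3% and 40.6% of the lists, against 17.2% of all named genes. Those towards Kc cells are 9.09% and 9.38%, against 14.7%. The single-strand binding genes RPA1 and RPA3 went from 3.65 and 3.66 to 1.12 and 1.30, and PCNA, the polymerase clamp, from 3.38 to 1.96. Mcm5 of the replicative helicase was 4.26 higher in Kc cells under H1 RNAi (change adjusted p = 0.43), and the origin recognition gene Orc1 had a larger Kc excess, 2.91 against 1.31. The cytokinesis gene feo read 8.59, 8.24 and 8.24 in the glands labelled H1 RNAi and 4.83, 4.36 and 4.98 in those labelled nau RNAi, and its Kc excess of 5.13 came down to 1.72. The passenger complex genes borr and Incenp kept 3.97 of 6.43 and 3.94 of 6.07.

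Called changes of regulators of the endocycle, by which polytene cells copy DNA without division, ran towards Kc cells. Of 14 members 9 changed towards Kc cells and 0 towards glands in limma, with 11 at an unadjusted p under 0.05 in either direction. The 9 are 64.3% of the list, against 14.7% of all named genes. The Kc excess of Cdk2 grew from 2.11 to 3.17, the Myc antagonist gene Mnt came to be 1.68 higher in Kc cells, and fzr, an activator of protein degradation in endocycling cells, went from 0.96 to -0.04 (change adjusted p = 0.000594). Of 31 ribosome biogenesis genes, 15 changed towards glands and 0 towards Kc cells in limma (25 at an unadjusted p under 0.05 in either direction). The 15 are 48.4% of the list, against 17.2% of all named genes. The number higher in Kc cells went from 23 (74.2%) to 10 (32.3%), or to 6 with quantile normalization. Of all named genes 22.2% were higher in Kc cells in the controls and 20.6% under H1 RNAi. The ribosome assembly gene ppan kept 1.18 of its Kc excess of 3.22 (under the minimum size with quantile normalization), and the RNA polymerase I gene Polr1B went from 2.01 to -0.44. The 25 cytoplasmic ribosomal protein genes held no tissue difference past both thresholds and no called change in limma, with 16 tissue differences and 1 change at an unadjusted p under 0.05, and differences under H1 RNAi from -0.64 to 0.37. Their signals lay near the top of the range, which limits what the arrays can show.

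**Figure D4:**
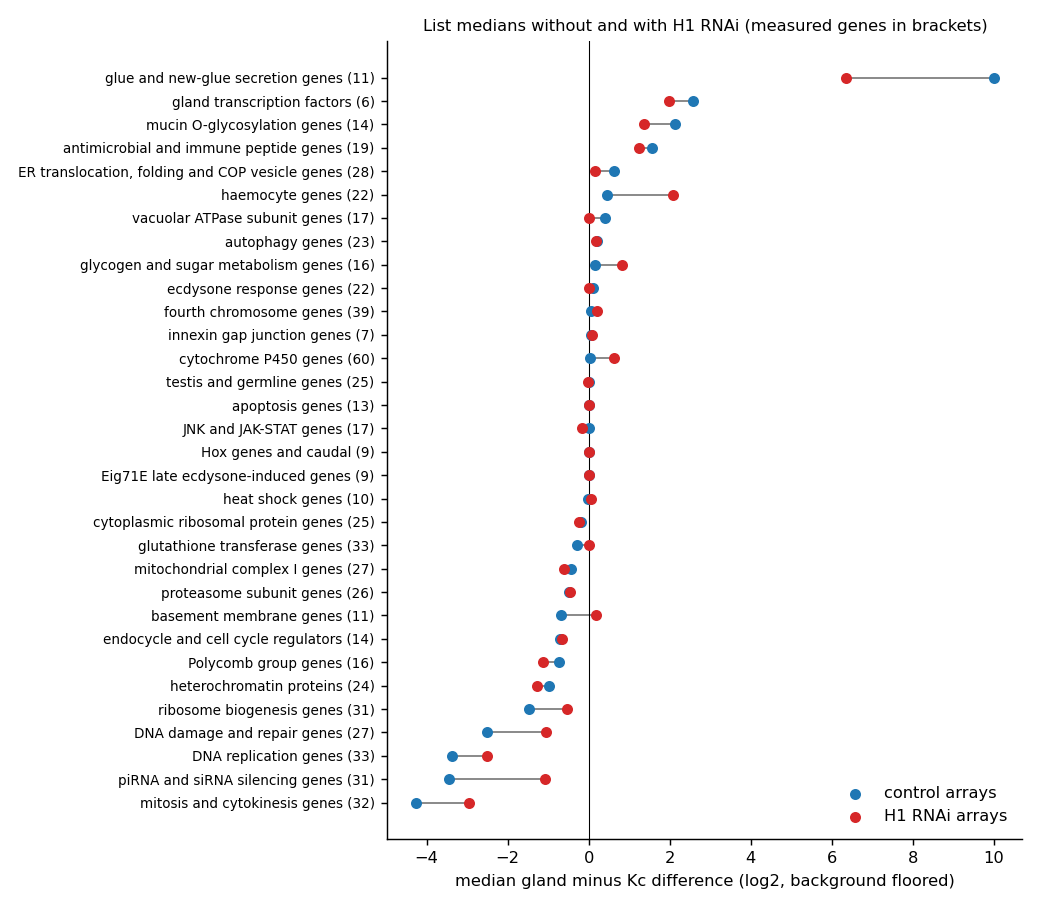
Median gland minus Kc difference (log2) of 32 gene lists in the control arrays (blue) and under H1 RNAi (red), with values at background set to the Tag control level and the number of measured genes in brackets. The glue, repair, silencing, replication, mitosis and ribosome biogenesis medians lie nearer to 0 under H1 RNAi, and the haemocyte median moves from 0.45 to 2.08.

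**Figure D5:**
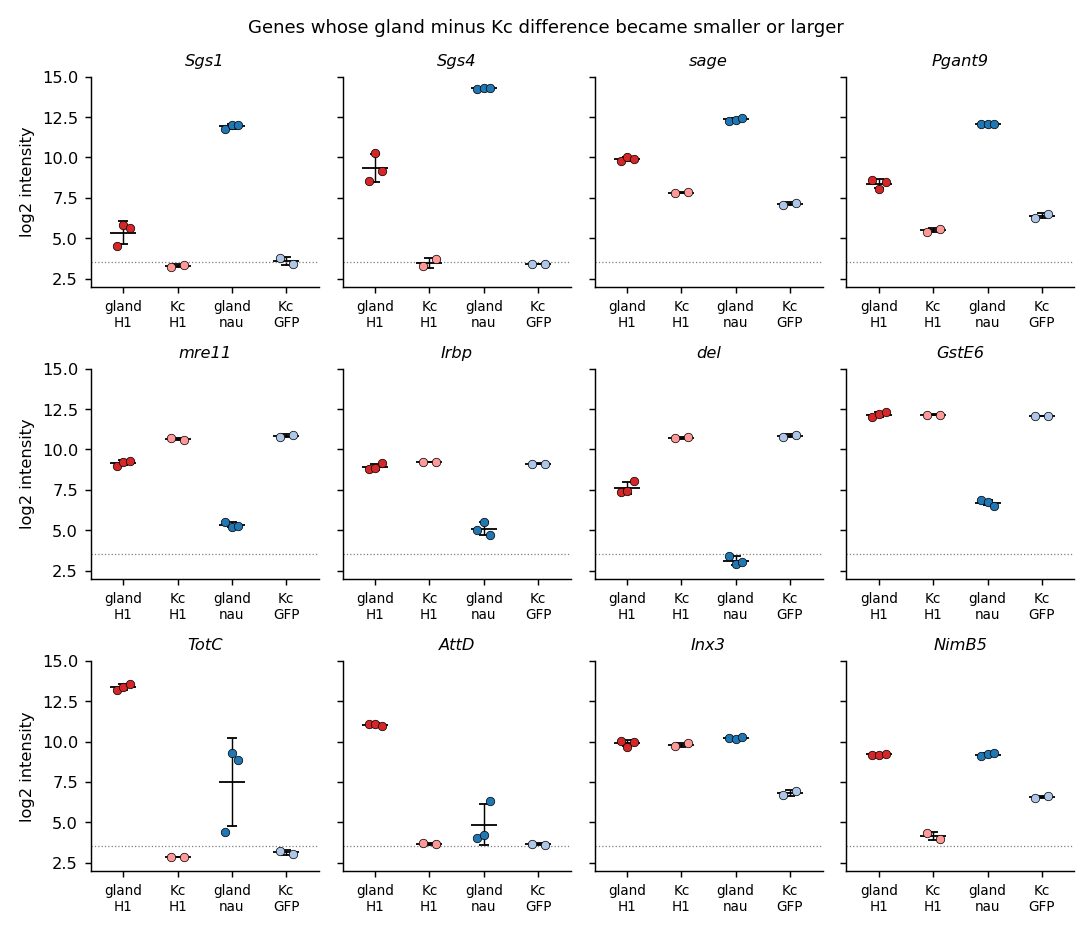
Log2 intensity of 12 genes in every array, by group, with the mean and SD in black and the Tag control level of 3.55 dotted. In the glands labelled H1 RNAi, Sgs1, Sgs4, sage and Pgant9 are below the glands labelled nau RNAi and mre11, Irbp, del, GstE6, TotC and AttD above them, while Inx3 and NimB5 differ between the Kc groups.

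More haemocyte genes were higher in glands under H1 RNAi than in the controls. Of 22 members 8 (36.4%) were higher in glands in the controls and 13 (59.1%) under H1 RNAi, against 12.6% and 13.5% of all named genes. The change was called towards glands for 12 (54.5%) and towards Kc cells for 2 (9.09%), against 17.2% and 14.7%. The prophenoloxidase gene PPO1 of melanization read 7.19, 7.17 and 7.83 in the glands labelled H1 RNAi and 4.56, 4.45 and 4.83 in those labelled nau RNAi, near background in Kc cells, with a difference of 3.80 against 1.02 (change adjusted p = 0.000126). The scavenger receptor gene Sr-CI was at least 2.60 higher in glands under H1 RNAi, with no called difference in the controls. NimB5 of the Nimrod family widened from 2.62 to 5.06 through the Kc side, which read 6.53 and 6.61 with GFP RNAi and 4.32 and 3.95 with H1 RNAi. NimC2 went the other way, from at least 6.75 to at least 3.91, and Hml, which encodes the clotting protein hemolectin, was 5.54 higher in Kc cells, with a change (adjusted p = 0.0329) that was lost without any one of 6 arrays and with quantile normalization.

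The levels of markers of other cell types were read beside these genes. The mean level of 12 haemocyte markers lay between 7.22 and 7.74 in the glands labelled H1 RNAi and between 6.12 and 6.33 in those labelled nau RNAi, with 1 marker at background in each. For 13 neuron and glia markers the ranges were 4.50 to 5.46 and 4.00 to 4.04, with 1 and 5 markers at background, and for 12 midgut markers 4.54 to 6.09 and 4.14 to 4.46, with 2 and 3. The fat body markers lay at 11.58 to 11.62 and 11.07 to 11.23. Of the changes, 2 of 13 neuron and glia markers and 1 of 12 midgut markers were called towards glands, where 17.2% of all named genes were. Under H1 RNAi 4 midgut markers (33.3%) were higher in glands and 0 in Kc cells, where 13.5% and 20.6% of all named genes were. In the controls 0 midgut markers were called on either side. Of the neuron and glia markers 2 (15.4%) were higher in glands and 3 (23.1%) in Kc cells under H1 RNAi, near the 13.5% and 20.6% of all named genes. In the controls these were 0 and 5 (38.5%), against 12.6% and 22.2%. The midgut markers also spread widely over the 3 arrays labelled H1 RNAi. Of the 12 haemocyte markers 8 were called towards glands. The part of other cells in the gland changes was not tested.

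Basement membrane genes split. The papilin gene Ppn, a matrix gene of haemocytes, went from a Kc excess of 5.84 to 2.22, and the laminin gene LanB1 from 3.09 to 3.93. The perlecan gene trol kept a gland excess of 7.27 of 7.99. Mp, a collagen gene, read 8.81 and 8.75 in Kc H1 cells and 5.25 and 5.28 in Kc GFP cells, and 9.13, 8.98 and 9.34 in the glands labelled H1 RNAi and 6.64, 6.91 and 7.19 in those labelled nau RNAi. Both tissues were higher under H1 RNAi, and the gland excess of 1.65 was no longer called (0.37). Over the list of 11, 3 (27.3%) changed towards glands and 4 (36.4%) towards Kc cells, against 17.2% and 14.7% of all named genes.

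Glutathione transferases and cytochrome P450 enzymes act in detoxification. Of 33 glutathione transferase genes, 13 (39.4%) were higher in Kc cells and 8 (24.2%) in glands in the controls. Under H1 RNAi these were 6 (18.2%) and 11 (33.3%). Of all named genes 22.2% and 12.6% were in the controls, and 20.6% and 13.5% under H1 RNAi. The change was called towards glands for 15 (45.5%) and towards Kc cells for 2 (6.06%), against 17.2% and 14.7% of all named genes. GstE6 read 12.16 ± 0.16 (SD, n = 3) in the glands labelled H1 RNAi and 12.12 and 12.16 in Kc H1 cells, where the groups overlapped, against 6.88, 6.74 and 6.53 in the glands labelled nau RNAi and 12.10 and 12.08 in the control Kc cells. Its Kc excess of 5.37 was no longer called (0.02, adjusted p = 0.917). GstE5 came to be at least 5.43 higher in glands and GstD6 went from 1.18 to 4.46, while GstE2 was 5.03 higher in Kc cells under H1 RNAi (change adjusted p = 0.0817). These genes are close relatives, and cross-hybridisation between their probe sets was not tested. Of 60 P450 genes 26 (43.3%) were higher in glands and 10 (16.7%) in Kc cells under H1 RNAi. In the controls these were 22 (36.7%) and 12 (20%). Of all named genes 13.5% and 20.6% were under H1 RNAi, and 12.6% and 22.2% in the controls. In this family 17 changes (28.3%) ran towards glands and 11 (18.3%) towards Kc cells, against 17.2% and 14.7% of all named genes, with a median change of 0.01. Cyp4ac3 went from at least 1.19 to 5.14, and Cyp6a14 came to be 3.02 higher in glands. Cyp6a23 lost a Kc excess of 3.77 (0.48 under H1 RNAi, change adjusted p = 0.0017).

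Single immune and stress genes had large changes towards glands. AttD, an antibacterial peptide gene, read 11.11, 11.07 and 10.93 in the glands labelled H1 RNAi, 4.01, 4.23 and 6.32 in those labelled nau RNAi and 3.73 and 3.64 in Kc H1 cells. Its difference was 7.36 under H1 RNAi and was not called in the controls (1.21, adjusted p = 0.0921), with a change of 6.15 (adjusted p = 0.000341). The antifungal peptide gene Drs went from 5.39 to 8.07. TotC, a Turandot stress peptide gene, was at least 9.83 higher in glands under H1 RNAi at 13.22, 13.35 and 13.57, whereas the glands labelled nau RNAi spread over 4.37, 9.30 and 8.84, and its called change (adjusted p = 0.0205) was lost without any one of the 4 Kc arrays. Of the 19 immune genes, 10 (52.6%) were higher in glands under H1 RNAi and 11 (57.9%) in the controls. Of all named genes 13.5% and 12.6% were. In this list 4 changes (21.1%) ran towards glands and 2 (10.5%) towards Kc cells, near the 17.2% and 14.7% of all named genes.

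Called changes in lists of chromatin genes ran in both directions. Of 24 genes of heterochromatin proteins, 14 were higher in Kc cells under H1 RNAi and 12 in the controls. These were 58.3% and 50% of the list, against 20.6% and 22.2% of all named genes. In this list 6 (25%) changed towards glands and 6 (25%) towards Kc cells, against 17.2% and 14.7%. HP6, a gene of the HP1 family, was at least 2.98 higher in glands under H1 RNAi and near background in the controls, while the Kc excess of Su(var)2-10, a SUMO ligase gene, grew from 2.94 to 4.18. Of 16 Polycomb group genes 8 (50%) were higher in Kc cells under H1 RNAi, against 20.6% of all named genes, and escl came to be 1.65 higher in glands. In this group 1 (6.25%) changed towards glands and 3 (18.8%) towards Kc cells, against 17.2% and 14.7% of all named genes. With quantile normalization 6 changed towards Kc cells. Of 39 genes of chromosome 4, which is rich in heterochromatin, 13 (33.3%) were higher in glands under H1 RNAi, against 13.5% of all named genes. Called changes on chromosome 4 ran more often towards Kc cells, with 13 (33.3%) against 14.7% of all named genes. Towards glands there were 5 (12.8%), against 17.2%. The eye gene toy, at background in glands labelled nau RNAi, kept 2.37 of a Kc excess of at least 5.86. Among 9 Hox-related genes, cad was at least 3.78 higher in glands under H1 RNAi (change adjusted p = 9.59e-06), while Antp (at least 3.35 in glands) and Dfd (3.77 in Kc cells) did not pass the test of change (adjusted p = 0.0962 and 0.424).

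Differences that appeared or became larger under H1 RNAi included genes near background in every other group. CG13135 read 12.26, 12.06 and 12.08 in the glands labelled H1 RNAi, 4.05, 4.30 and 3.79 in those labelled nau RNAi and 3.99 and 3.95 in Kc H1 cells, a difference of 8.17 where the controls gave -0.05. Obp50e (at least 6.71), the cadherin gene stan of planar polarity (at least 6.45) and lncRNA:CR42646 (at least 6.55) behaved alike. Jig, with 1.77 in the controls, and Taf12L, a testis relative of a general transcription factor subunit, with at least 1.46, reached 8.10 and 6.55. For Taf12L both tissues rose under H1 RNAi, from 3.42, 5.57 and 6.06 to 12.56, 12.43 and 12.81 in glands and from 2.81 and 3.12 to 5.87 and 6.23 in Kc cells. On the Kc side CG14864 (at least 4.16), CG6656 (3.98) and CG7059 (3.44) appeared, and the peroxiredoxin gene Prx6c grew from 1.61 to 3.98. CG31272 grew from 1.88 to at least 5.19 and the UDP-glycosyltransferase gene Ugt305A1 reached at least 3.96, both with a higher level in Kc H1 cells. CG31272 read 8.67 and 8.83 there and 5.91 and 5.84 in Kc GFP cells, and Ugt305A1 read 7.42 and 7.60 and 5.30 and 5.07 in the same 2 groups. The control target gene nau was among these, at least 3.47 higher in Kc cells under H1 RNAi and -0.27 in the controls.

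Differences that were no longer called under H1 RNAi fell on both sides. The gland excess of SmydA-9 (5.97 in the controls), of the scavenger receptor gene santa-maria (6.06) and of Npc2e (at least 5.06) was no longer called, at 0.61 for SmydA-9 and 0.77 for santa-maria, while Npc2e lay at background in the glands labelled H1 RNAi. The Kc excess of CG8620 (5.72) and CG11893 (4.25) ended at gland minus Kc values of 0.76 and 0.98, under the minimum size. CG14545 kept 1.65 of at least 8.51 towards Kc cells. In the gap junction gene Inx3 the closing came from the Kc side, which read 6.69 and 6.95 with GFP RNAi and 9.72 and 9.90 with H1 RNAi, while glands labelled nau RNAi read 10.22, 10.14 and 10.26 and those labelled H1 RNAi 10.01, 9.68 and 9.97. Its excess of 3.39 came down to 0.07 (adjusted p = 0.678).

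Cell death and signalling genes were mixed. The caspase gene Dcp-1 read 7.78, 7.71 and 7.83 in the glands labelled H1 RNAi against 3.79, 3.62 and 3.84 in those labelled nau RNAi, and kept 1.12 of a Kc excess of 4.89, a difference under the minimum size with quantile normalization. Dark, the apoptosome gene, came to be 2.76 higher in Kc cells. For p53 the brighter of 2 probe sets kept 1.45 of 2.51 towards Kc cells with a change of 1.07 towards glands, and the other changed by -1.63, so the direction of its change depends on the probe set. Over 13 apoptosis genes 4 (30.8%) changed towards glands and 3 (23.1%) towards Kc cells, against 17.2% and 14.7% of all named genes. Over 17 JNK and JAK-STAT genes 3 (17.6%) and 2 (11.8%) did, near the 17.2% and 14.7% of all named genes. The TNF gene egr widened from 1.78 to 3.05 in glands, and Ets21C was 3.94 higher in Kc cells under H1 RNAi (change adjusted p = 0.184).

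Among 7 innexin genes of gap junctions, 2 (28.6%) changed towards glands, Inx7 and Inx2, and 1 (14.3%), Inx3, towards Kc cells. Of all named genes 17.2% and 14.7% did. The median change of the list was -0.01. Inx7 read 6.74, 6.85 and 6.91 in the glands labelled H1 RNAi and lay at background in those labelled nau RNAi and in Kc cells, a difference of at least 3.28 (change adjusted p = 1.86e-06), and ogre was 3.86 higher in glands with no called change. The call of Inx2 (adjusted p = 0.0218) was lost without Kc GFP array b or Kc H1 array a. Of 16 glycogen and sugar metabolism genes 7 (43.8%) changed towards glands and 2 (12.5%) towards Kc cells, against 17.2% and 14.7% of all named genes. The glycogen synthase gene Glys lost a Kc excess of 1.57 (0.23 under H1 RNAi, change adjusted p = 7.49e-06), and the branching enzyme gene AGBE came to be 2.33 higher in glands. Pepck1 of sugar synthesis had a smaller gland excess, 3.07 against 3.78.

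Groups of general cell function had few large changes. Of 26 proteasome subunit genes 5 (19.2%) were higher in Kc cells in each comparison, near the 20.6% under H1 RNAi and 22.2% in the controls of all named genes. The largest change was that of Rpn1, from 1.16 to 2.50 towards Kc cells. Of 17 vacuolar ATPase genes 5 and of 27 complex I genes 6 changed towards Kc cells, by less than 1 on the log2 scale. These are 29.4% and 22.2% of the lists, against 14.7% of all named genes. Among 23 autophagy genes 1 (4.35%) changed towards glands and 3 (13%) towards Kc cells, and among 10 heat shock genes 3 (30%) and 1 (10%). Of all named genes 17.2% and 14.7% did. The mitochondrial chaperone gene Hsp60A kept 1.75 of a Kc excess of 2.99, and Hsp27 1.76 of a gland excess of 2.82. Testis and germline genes are not a group of general cell function. Of 25 members 11 (44%) were higher in Kc cells in each comparison, against 20.6% of all named genes under H1 RNAi and 22.2% in the controls. In this list 2 changes (8%) ran towards glands and 4 (16%) towards Kc cells, against 17.2% and 14.7% of all named genes. The largest was that of Marf1, 6.56 towards glands.

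Muscle, trachea and imaginal cell markers gave the remaining check on tissue makeup. Of 10 muscle markers 7 (70%) were higher in glands under H1 RNAi and 5 (50%) in the controls. Of all named genes 13.5% and 12.6% were. The mean level of these markers was 5.35 to 6.02 in the glands labelled H1 RNAi and 5.28 to 5.74 in those labelled nau RNAi. In these gland groups 2 and 1 markers lay at background, and in Kc H1 and Kc GFP cells 5 and 4 did. The titin-like gene sls kept 2.29 of 5.90, and Act79B came to be 2.32 higher in glands. Of 7 trachea and epidermis markers 1 changed towards glands and 1 towards Kc cells, and of 11 imaginal cell markers 0 and 1. Of all named genes 17.2% and 14.7% did.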

How the data were processed

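The authors hybridised biotin-labelled total RNA to Affymetrix Drosophila arrays, and the deposited values are intensities on a linear scale, 1 per probe set and array, made with RMA per the submitters' processing notes. The RMA version, and whether all arrays were normalized together, are not given in the sources used here. The number of arrays, not a read depth, limits the precision. RMA forces similar distributions on the arrays, so a shift common to most genes would not be seen.

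Log2 intensities of 18769 probe sets, after leaving out 183 control probe sets, were fitted with limma 3.58.1 in R 4.3.3 as 4 group means over all 10 arrays. The contrasts were the gland minus Kc difference under H1 RNAi, the same in the control arrays, and their difference. P-values were adjusted over all probe sets by the Benjamini-Hochberg method. The fit was tested on simulated data. Platform annotation gave 1 symbol to 13647 tested probe sets, several to 402 and none to 4720. Each of the 11982 named genes is given by its brightest probe set.

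Groups came from the sample titles. The members and gene lists were chosen with earlier results of these data known. The text names genes from a rule that took 321 genes: the 10 largest differences at each end under H1 RNAi, 4 genes per class and direction, 6 members per list by change and 2 by difference, and the RNAi targets. Array letters did not pair the arrays, since correlations of deviations between arrays of one letter lay between -0.072 and 0.089. Alternatives were quantile normalization, median centring, array weights per tissue, an intensity trend with a robust prior, a background filter, a replicate block, other minimum differences, the mean of probe sets, fits of 5 arrays only and leaving out each array.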

Additional observations from a re-analysis of the deposited data

Results flagged for a closer look

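Among 11982 named genes, 3830 had a tissue difference that differed between H1 RNAi and control arrays by the test of the difference itself. Among the named genes that reversed, the change was towards glands for He (6.60), CG12493 (5.68), Obp44a (5.24), NaPi-III (5.11), eater (5.02) and unc-13 (3.42). It was towards Kc cells for Oat (-4.08), jtb (-3.60), Glut1 (-2.92) and CG32536 (-2.90).

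Control probe sets outside the gene comparison carried a signal of their own. In the glands labelled H1 RNAi the 3′ minus 5′ difference was 2.29 for actin, 2.53 for GAPDH and 2.48 for eIF-4a on the log2 scale. In the glands labelled nau RNAi these were 1.91, 2.13 and 2.17, in Kc H1 cells 0.27, 0.58 and 0.58, and in Kc GFP cells 0.44, 0.83 and 0.56. The difference was larger in both gland groups than in Kc cells and larger in the glands labelled H1 RNAi than in those labelled nau RNAi, without overlap between their arrays. For actin and GAPDH it was smaller in Kc H1 than in Kc GFP cells. The Bacillus control probe sets read 6.79 and 7.41 in the glands labelled H1 and nau RNAi, 3.83 to 3.97 in Kc H1 cells and 4.56 to 5.44 in Kc GFP cells. The part of these signals in the tissue differences and in the changes was not tested.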

How the results depend on the processing

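Quantile normalization, median centring, array weights, the trend with a robust prior, the background filter, the mean of probe sets and fits of 5 arrays kept the counts of called tissue differences and changes within 1.5 times. The larger side of the change depended on the scaling, with 2064 towards glands and 1766 towards Kc cells as reported and 1782 and 2013 with quantile normalization. Median centring moved the median tissue difference under H1 RNAi by -0.12. With the replicate block, 1630 and 2470 genes were higher in glands and Kc cells under H1 RNAi, and 2045 and 1705 changes were called towards glands and Kc cells.

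With no minimum difference, 2808 genes were higher in glands and 4493 in Kc cells under H1 RNAi, against 2890 and 4239 in the controls. The classes then held 3285 genes with no called change, 1297 smaller, 907 larger and 264 reversed differences, and 737 and 840 genes called in the control arrays or under H1 RNAi alone without a called change. With a minimum of 2, the counts were 972 and 932 under H1 RNAi, where glands became the larger side, and 866 and 1171 in the controls. The classes then held 722, 348, 263 and 4 genes in the same order, 444 that arose with a called change, and 133 and 123 without one.

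Leaving out each array in turn gave 371 (without Kc GFP array b) to 571 larger differences, and 236 to 445 (without Kc H1 array a) control differences lost without a called change. Without any one Kc array, 1493 to 1569 changes towards glands and 1235 to 1252 towards Kc cells were called. Of 217 named genes with a called change, 44 lost it without at least 1 array and 24 in another setting. Of 216 with a called H1 RNAi difference, 11 and 57 did. The minimum of 2 by itself took 57 of these calls, since every difference between 1 and 2 must fall under it. With the mean of probe sets, the H1 RNAi difference of Glut1 reversed to 0.10 and the change of p53 to -0.28. With 2 or 3 arrays per group and signals near the array maximum for glue genes, Obp99b and Lsp2, small changes of the brightest genes could not be measured.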
